A study of Mus musculus with 8 samples.

Results

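The RGK family is a small branch of Ras-like GTPases named after Rad (gene Rrad) and Gem (also called Kir), and it includes Rem1 and Rem2. Its probes were chosen by gene name on the arrays, and 4 of 41174 probes matched (4 of 28785 gene names), 1 each for Gem, Rrad, Rem1 and Rem2. The family was selected with the cyclosporin difference of Gem already known, so the cyclosporin values of its members are given as a description, with no test.

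RGK proteins bind the beta subunits of voltage-gated calcium channels and reduce calcium entry through them. Unlike most Ras proteins they have little or no lipid anchoring, and they bind calmodulin and 14-3-3 proteins. Gem also acts on the actin cytoskeleton, and it is known as a gene that mitogens induce in lymphocytes, while Rrad is known from skeletal muscle, heart and injured arteries, Rem1 from heart and Rem2 from neurons.

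Expression was measured in primary smooth muscle cells grown from the aortas of C57BL/6 mice and kept in medium with serum, with 4 cultures per treatment and 1 one-colour array per culture, 8 in all. The AngII+CsA cultures received 1 µM angiotensin II, a peptide hormone that contracts arteries and raises intracellular calcium, with 200 ng/ml cyclosporin A, an inhibitor of the calcium-dependent phosphatase calcineurin. The AngII cultures received 1 µM angiotensin II alone. All cells thus received angiotensin II, cells without it were not analysed here, and the age of the mice and the length of treatment are not given in the sources used here. The comparison asks which transcripts of angiotensin-treated smooth muscle are sensitive to cyclosporin.

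The members are identified by 60-base probes, which carry the whole measurement because each gene has a single one. The sequences below run 5′ to 3′ and show which stretch of each transcript was measured. The Rrad and Rem1 probes are shown whole, and the Gem and Rem2 probes by their first 30 bases.

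Rrad: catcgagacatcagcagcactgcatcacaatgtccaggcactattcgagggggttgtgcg

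Rem1: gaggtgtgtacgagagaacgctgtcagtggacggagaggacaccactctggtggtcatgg

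Gem: gcttactaacagtttttgtttaaagaccac

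Rem2: cggaaagacacttcaaaaactagaaccgaa

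Per the array files, on build mm7, the Gem probe lies on chromosome 4 from 11641396 to 11641455, and the Rrad probe on chromosome 8 from 103227935 to 103227994, listed in descending order. The Rem2 probe lies on chromosome 14 from 49347530 to 49347589. The Rem1 probe is listed on chromosome 2 from 152369290 to 152370090, a span of 801 bases for a 60-base probe. The whole Rrad and Rem1 probes have no stop triplet in any of the 3 reading frames, the Rem2 probe has none in 2 of the 3, and the Gem probe has one in all 3. No mm7 annotation was used, and so the exon or untranslated part that each probe falls in is not given. The longest run of bases that any pair shares, on either strand, is 8, between Gem and Rem2. The Gem probe is 35% G and C, the lowest of the family, against 58.3% for Rem1.

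Between 42.8% and 51.7% of the spots on each array were well above background. Deviations from the group means were correlated at 0.70 to 0.86 within a replicate number and at -0.76 to 0.25 across numbers. Each number is 1 slide and 1 scan, per the file headers, so culture number and slide cannot be told apart. Replicate 1 had the lowest smooth muscle and the highest fibroblast marker sums. The summed signal of 10 smooth muscle markers, in multiples of each array's 75th percentile, was 222 (AngII+CsA) and 291 (AngII) on the replicate 1 arrays and 713 to 1376 on the other 6. The summed signal of 7 adventitial fibroblast markers was 1149 (AngII+CsA) and 1199 (AngII) on the replicate 1 arrays and 301 to 788 on the others, with Cd34 below background on every array. Replicate 2 lay between replicate 1 and replicates 3 and 4 in both sums. Its fibroblast sum was 689 (AngII+CsA) and 788 (AngII), and its smooth muscle sum 727 and 713. The sums are linear, so each follows mostly its brightest markers and not its list as a whole. Dcn was the brightest fibroblast marker, with mean log2 levels of 9.05 (AngII+CsA) and 9.01 (AngII), against 5.51 and 5.74 for Pdgfra. Tagln was the brightest smooth muscle marker, at 8.68 (AngII+CsA) and 8.71 (AngII), against 0.57 and 0.23 for Myh11. Of the smooth muscle markers 7 of 10 were well above background on all 8 arrays, among them Acta2, Tagln and Myh11. Myocd, the coactivator that defines the lineage, was above background on 1 of 4 AngII+CsA arrays and 0 of 4 AngII arrays. Of 16 cardiac and skeletal muscle markers, 8 were above background on all 8 arrays (Myh2, Tnnt2, Tnnt3, Tnni3, Ttn, Ryr1, Ryr2 and Nppa). Myh6, Actn2 and Mb were above it on none. The summed signal of the 16 was 14.7 to 34.9 in AngII+CsA and 15.9 to 36.9 in AngII cultures. Endothelial (9 genes), macrophage (7) and T cell (7 on the array) markers had sums of 1.42 to 2.56, 6.69 to 10.8 and 1.26 to 1.88 in AngII+CsA, against 1.60 to 2.41, 6.96 to 11.9 and 1.35 to 2.65 in AngII, with Pecam1, Cdh5, Tie1, Adgre1, Itgam and Cd8a above background nowhere. On all 8 arrays 2 endothelial (Erg and Tek), 3 macrophage (Cd68, Csf1r and Cd14) and 3 T cell markers (Cd3e, Cd2 and Cd4) were above background. Results on the family are given with and without replicate 1 where they rest on it. Rcan1, the feedback inhibitor of calcineurin driven by NFAT, served as a check of the drug. Its mean, for the brighter of its 2 probes, was 2.75 ± 0.69 in AngII+CsA and 5.01 ± 0.61 in AngII (log2, SD, n = 4 each). The difference was -2.26 with 4 of 4 pairs lower, at -2.39, -2.12, -2.01 and -2.52 in replicates 1 to 4. Its adjusted p was 0.9999 by limma on the groups alone and 0.0214 by limma with a block for the replicate number. The call with the block was lost when any 1 number was left out, which leaves fewer arrays to estimate the spread. The blocked fit also made excess false calls in a few draws of simulated data.

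Gem had a lower value in AngII+CsA cultures in 4 of 4 pairs. Values are log2 of the background-subtracted signal minus the array's 75th percentile. They were -4.34, -2.77, -3.87 and -3.46 in AngII+CsA replicates 1 to 4, against -2.68, -2.18, -3.03 and -2.81 in AngII replicates 1 to 4. Every AngII+CsA value lay below its own AngII partner, but the groups overlapped, because AngII+CsA replicate 2 lay above AngII replicates 3 and 4. The mean was -3.61 ± 0.67 in AngII+CsA and -2.68 ± 0.36 in AngII (SD, n = 4 each), a difference of -0.93 log2, or 1.91-fold lower with cyclosporin. The differences within a number were -1.67, -0.58, -0.83 and -0.65, so replicate 1 had the largest, and the mean without both replicate 1 arrays was -0.69. Of the 19499 tested probes complete on all arrays, 9.47% were lower in 4 of 4 pairs and 1.89% were lower by more than 0.5 log2, which is given as background and not as a test of Gem.

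Gem was dim in these cells. On the linear scale of the scanner software its signal was 5.06, 18.3, 5.78 and 10.9 in AngII+CsA replicates 1 to 4, against 13.5, 27.5, 7.96 and 14.7 in AngII replicates 1 to 4. The software marked it as well above background on 1 of 4 AngII+CsA arrays and on 3 of 4 AngII arrays, which is 4 of 8 and the least that enters the tests. It therefore entered mainly through the AngII arrays. At most 4 of 153 negative control spots per AngII+CsA array and 2 per AngII array were as bright as the Gem spot, and the software called it significantly above background on all 8 arrays by its less strict mark.

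The size of the Gem difference depended on how these dim signals were treated, while its direction did not among the settings run. With quantile normalization it was -0.83, and in the authors' deposited table of log2 values it was -0.82. When values below background were raised to the lowest signal above background on their array, it was -0.53. With normexp background correction, which adds an offset before the logarithm, it was -0.29, with within-number differences of -0.39, -0.34, -0.21 and -0.25. Gem was lower in 4 of 4 pairs under each of these, and with normexp so was Rem1, by a mean of -0.26.

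**Figure D1:**
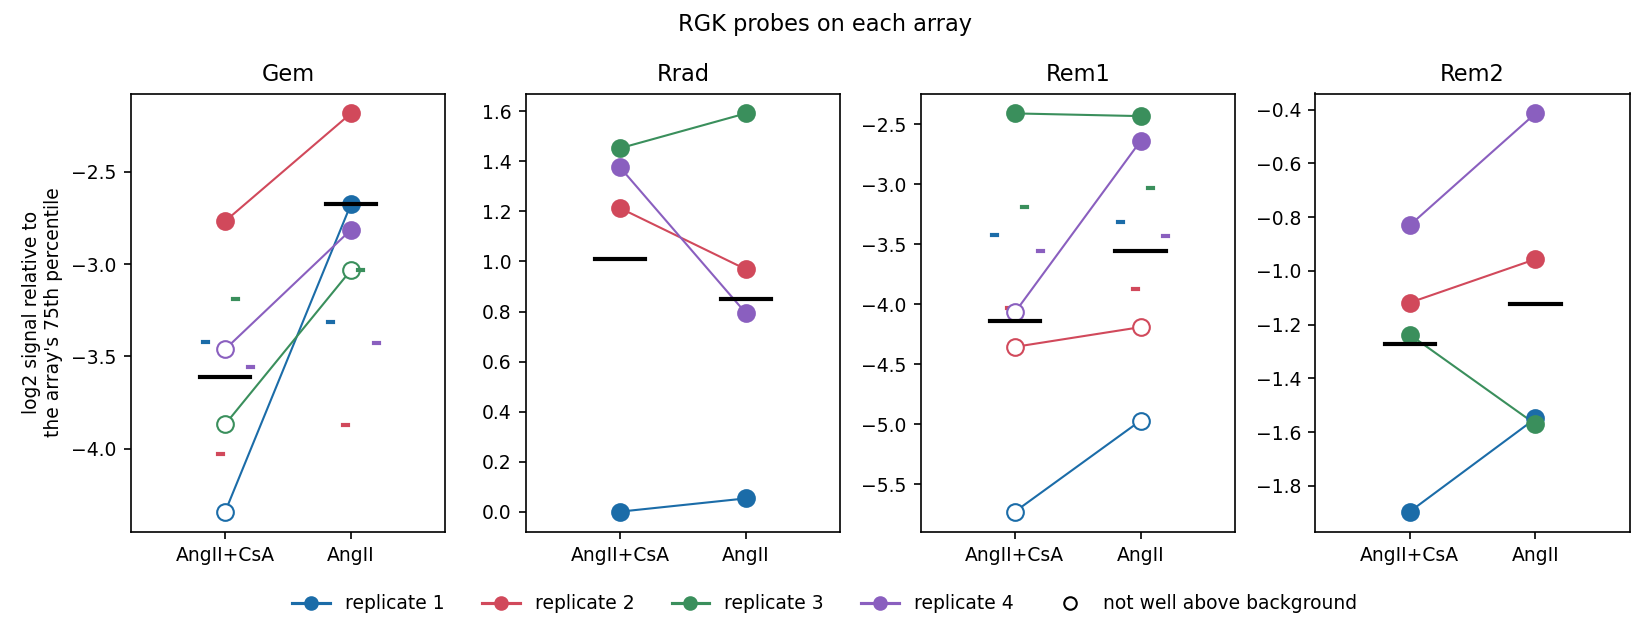
Log2 signal of each RGK probe, scaled to the 75th percentile of its array, on the AngII+CsA arrays (left) and the AngII arrays (right). Lines join arrays of the same replicate number, black bars are group means, open circles are values not well above background, and the short coloured dashes beside Gem and Rem1 mark the lowest signal above background on each array. The vertical scale differs between panels. Gem lies lower with cyclosporin in all 4 pairs, between -4.34 and -2.77 against -3.03 and -2.18 with AngII alone, and 3 of its 4 AngII+CsA values are not well above background.

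Rrad, the GTPase first found as Ras associated with diabetes, was well above background on all 8 arrays. Its values were 0.00, 1.21, 1.45 and 1.38 in AngII+CsA replicates 1 to 4, against 0.05, 0.97, 1.59 and 0.79 in AngII replicates 1 to 4. The groups overlapped. The mean was 1.01 ± 0.68 in AngII+CsA and 0.85 ± 0.63 in AngII (SD, n = 4 each), a difference of 0.16, with 2 pairs lower and 2 higher. The within-number differences were -0.05, 0.24, -0.14 and 0.58. On leaving out single arrays the difference ranged from -0.11 to 0.50, and the higher end came from leaving out AngII+CsA replicate 1 and the lower from leaving out AngII replicate 1. No negative control spot was as bright as Rrad on any array, with 0 of 153 in each.

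Rem2, known for its role in neurons, was also well above background on all 8 arrays. Its values were -1.90, -1.12, -1.24 and -0.83 in AngII+CsA replicates 1 to 4, against -1.55, -0.96, -1.57 and -0.41 in AngII replicates 1 to 4. The difference of the means was -0.15, at -1.27 ± 0.45 in AngII+CsA and -1.12 ± 0.55 in AngII (SD, n = 4 each). Replicate 3 was higher with cyclosporin by 0.33 while the other 3 pairs were lower by 0.16 to 0.42 log2, so the pairs did not share a direction. The mean difference was 0.06 without AngII+CsA replicate 1 and 0.09 without AngII replicate 4. Of the 10 neuron markers listed as a check, 4 were below background on every array (Syp, Nefm, Gad1 and Slc17a7) and 2 were above it on all 8 (Rbfox3 and Tubb3). Syt1 was above it on 3 of 4 AngII+CsA and 4 of 4 AngII arrays. The summed signal of that list was 3.94 to 7.52 in AngII+CsA cultures and 3.45 to 7.83 in AngII cultures.

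Rem1, known from heart, did not enter the tests. It was well above background on 1 of 4 AngII+CsA arrays and 2 of 4 AngII arrays. Its values were -5.73, -4.35, -2.41 and -4.07 in AngII+CsA replicates 1 to 4, against -4.97, -4.19, -2.43 and -2.64 in AngII replicates 1 to 4. The mean difference was -0.58, but it came mostly from replicate 4, at -1.43, and replicate 1, at -0.76, where 146 of 153 negative control spots were at least as bright as Rem1 on the AngII+CsA array. Replicate 3, the single number with a detected signal on both arrays, differed by 0.02. Raised to the lowest signal above background, the difference was -0.29, and on leaving out single arrays it lay between -1.16 and -0.05. With normexp the within-number differences of Rem1 were -0.21, -0.32, -0.07 and -0.44, lower in 4 of 4 pairs.

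**Figure D2:**
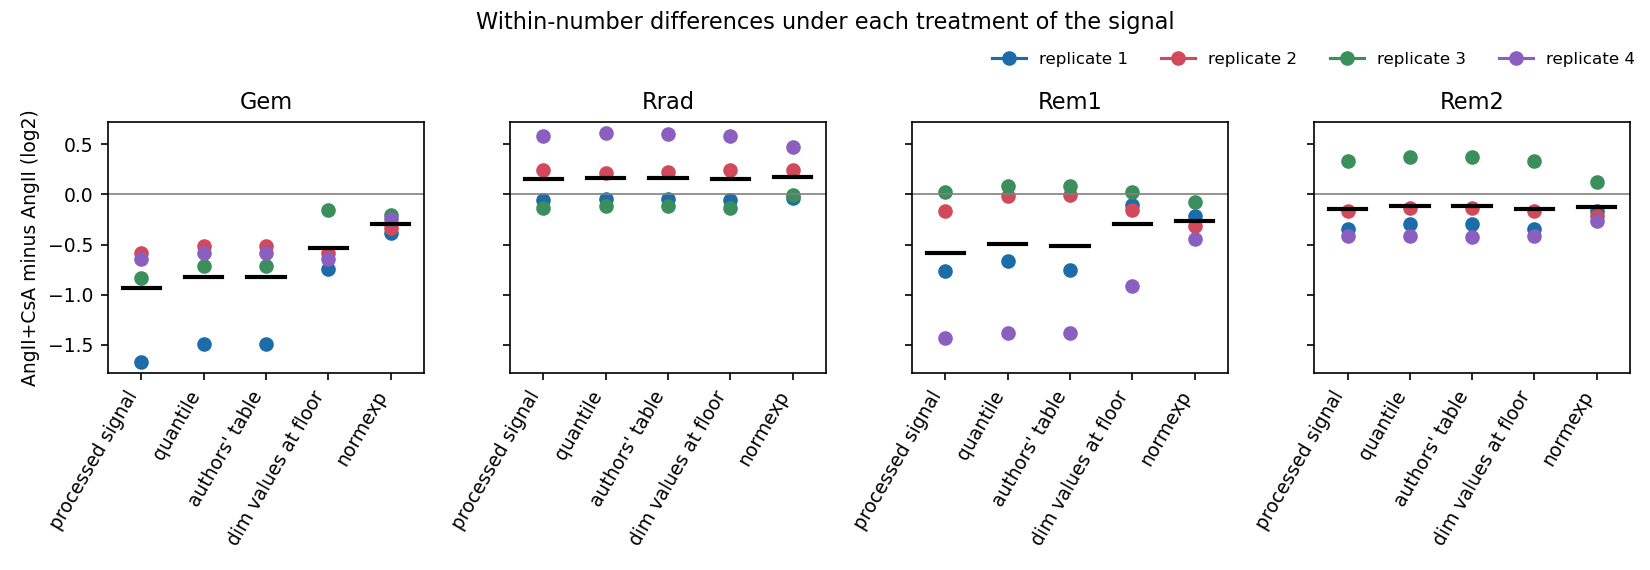
Difference of AngII+CsA minus AngII (log2) within each replicate number for the 4 RGK probes under 5 treatments of the same arrays, with black bars at the mean. "Dim values at floor" raises values below background to the lowest signal above background on their array. The mean for Gem lies between -0.93 and -0.29 and all 4 points are below 0 in each treatment, the points of Rem1 are all below 0 with normexp, and the points of Rrad and Rem2 lie on both sides of 0.

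Across the 19529 tested probes, limma on the groups alone called 0 probes after Benjamini-Hochberg adjustment (0% in each direction, with 59 at an unadjusted p under 0.05), and the blocked fit called 2 lower (0.0102%) and 0 higher, with 975 at an unadjusted p under 0.05. Those 2 probes were for Rcan1 and Serpinb1c. The fit on the groups alone ignores the pairing and leaves the variation among numbers in its residual. The share of probes whose 4 AngII+CsA values all lay below all 4 AngII values was 0.303%, and no RGK probe was among them.

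The levels of the family also differed between replicate numbers. This was tested as the variation among the 4 numbers with treatment in the model (limma's moderated F over 3 terms), a measure that did not enter the choice of the family. Its p-values set the variation among numbers against the spread left within numbers after treatment is fitted. Culture number and slide cannot be told apart in it. Of the 4 RGK probes 3 entered it and all 3 passed, beside 66.6% of the 19499 probes tested. Rrad passed with an adjusted p of 0.00731. Its mean over both arrays of a number was 0.03 for replicate 1, 1.09 for replicate 2, 1.52 for replicate 3 and 1.09 for replicate 4, a range of 1.50 log2 or 2.82-fold. Both replicate 1 arrays lay below all 6 others. Without replicate 1 the range was 0.44 and the adjusted p 0.159, so the call for Rrad rested on that number. Replicate 1 is also where the smooth muscle marker sum was lowest and the fibroblast sum highest, and the part of cell makeup in the Rrad level was not tested. In bulk cultures, fewer cells of a type and less RNA per cell cannot be told apart.

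Rem2 and Gem passed the same test. Rem2 had number means of -1.72, -1.04, -1.40 and -0.62 for replicates 1 to 4, a range of 1.10, with an adjusted p of 0.0191, and both replicate 4 arrays lay above the other 6. Without replicate 1 the adjusted p for Rem2 was 0.0564. It was also lost without AngII+CsA replicate 2 (0.0528), AngII+CsA replicate 4 (0.0522), AngII replicate 2 (0.0559) and AngII replicate 4 (0.097) by limma. Gem had number means of -3.51, -2.48, -3.45 and -3.14, with replicate 2 highest in either group, and a range of 1.03 at an adjusted p of 0.0463. That call was lost under 10 of 14 alternatives, with adjusted p-values from limma up to 0.657, the highest with normexp background correction, where the range shrank to 0.10. It was lost without AngII+CsA replicate 2, 3 or 4 and without AngII replicate 2, 3 or 4 (adjusted p of 0.0707 to 0.265), and kept without either or both replicate 1 arrays. Rem1 could be tested only with no filter on dim probes, where its adjusted p was 0.0208 by limma and 53.3% of all probes passed. The Rem1 number means were -5.35, -4.27, -2.42 and -3.35, a range of 2.93, with both replicate 3 arrays above and both replicate 1 arrays below all others. Rem1 was well above background on only 3 of the 8 arrays. Its range was 1.53 with values below background raised to the lowest signal above it, and 0.49 with normexp.

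Such variation was general on these arrays, and most probes tested passed. The median range over tested probes was 0.92, beside 1.50 for Rrad, 1.10 for Rem2 and 1.03 for Gem. The number with the highest mean was not the same for the members, replicate 2 for Gem, replicate 3 for Rrad and Rem1 and replicate 4 for Rem2.

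**Figure D3:**
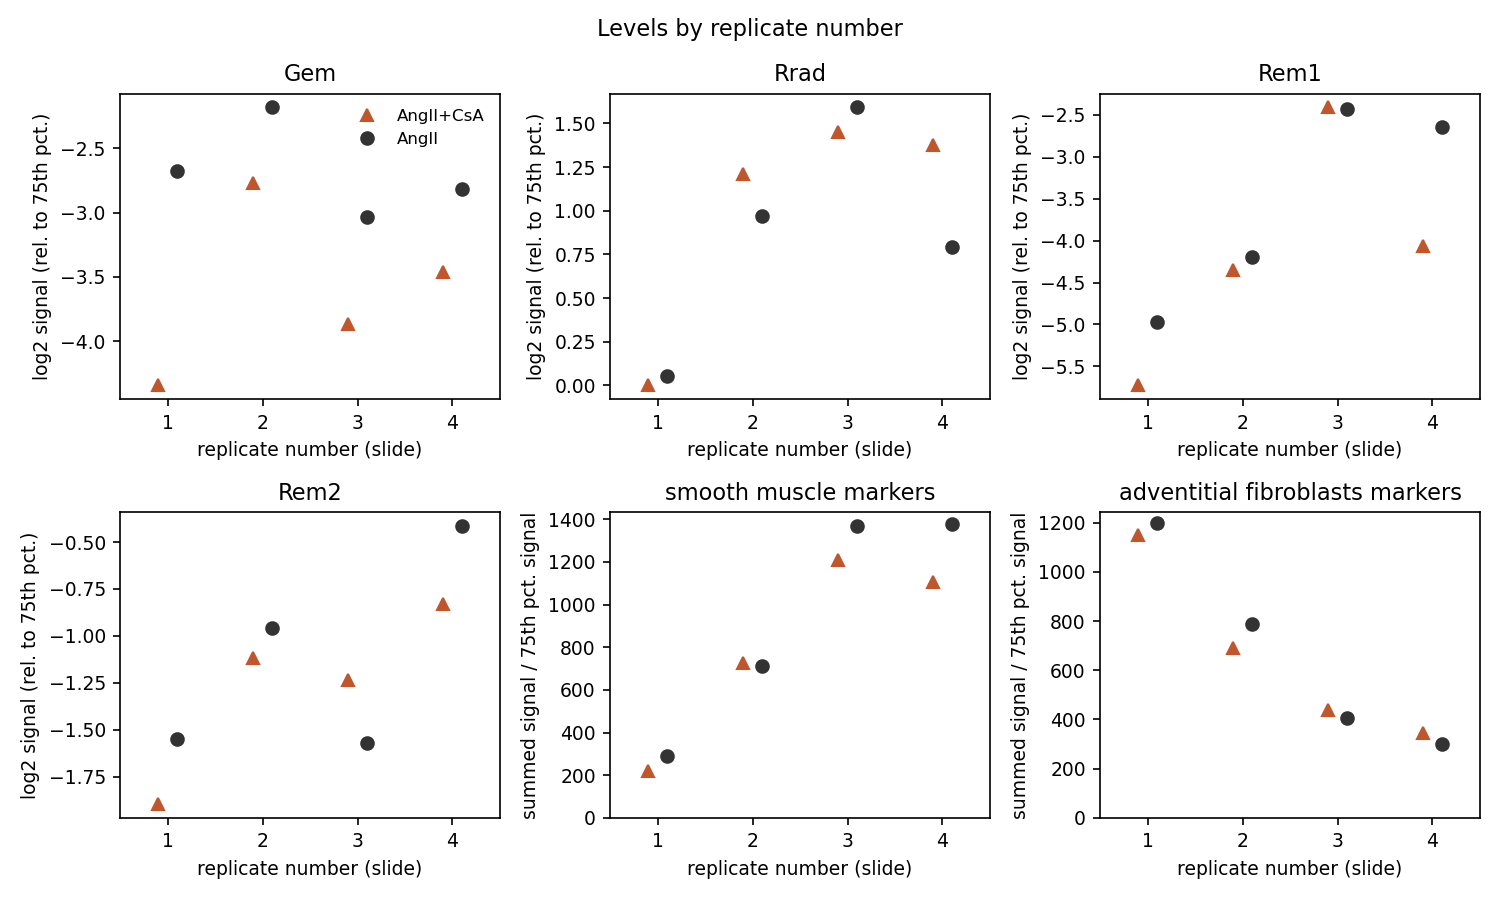
Levels by replicate number (each number is 1 slide) for the 4 RGK probes, as log2 signal scaled to the 75th percentile of the array, and the summed linear signal of smooth muscle and adventitial fibroblast markers in multiples of the 75th percentile signal. Triangles are AngII+CsA arrays and circles AngII arrays. Both replicate 1 arrays are lowest for Rrad and for the smooth muscle sum (222 and 291) and highest for the fibroblast sum (1149 and 1199).

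The targets of the RGK proteins, the voltage-gated calcium channels, showed no called change with cyclosporin. Of 26 subunit genes listed, 25 had a probe and 18 entered the tests, and 0 passed in either direction in either fit. There were 10 negative and 8 positive differences with a median of -0.02, the same as the median of -0.02 over all probes tested, and single members ranged from -0.45 to 0.40. Each gene is represented by its brightest probe.

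Among the pore-forming subunits, Cacna1c, the L-type channel that carries calcium into arterial muscle, measured -2.17 ± 0.35 in AngII+CsA and -2.26 ± 0.52 in AngII (SD, n = 4 each), a difference of 0.08. The T-type genes Cacna1g and Cacna1h differed by 0.20 and 0.05, and both were above background on all 8 arrays. Cacna1d, another L-type gene, was above background on 1 of 4 arrays in each group and was not tested.

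The beta subunits are the direct binding partners of the family. Cacnb1 measured 1.70 ± 0.81 in AngII+CsA and 1.71 ± 1.00 in AngII, and Cacnb3 1.40 ± 0.25 in AngII+CsA and 1.42 ± 0.47 in AngII (SD, n = 4 each), with differences of -0.01 and -0.02. Both were well above background on all 8 arrays. Cacnb2, the main beta subunit of heart, was above background on 0 of 4 AngII+CsA arrays and 1 of 4 AngII arrays, and Cacnb4 on 1 of 4 in each group, so neither was tested.

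The accessory subunit Cacna2d1, which helps bring channels to the membrane, was higher with cyclosporin in 4 of 4 pairs, by 0.66, 0.25, 0.14 and 0.24 log2, with a mean of 0.32 that did not pass (limma adjusted p = 0.9999 without the block and 0.926 with it). It was the 1 tested subunit higher in every pair, and 2 were lower in every pair, Cacna1s (by 0.32, 0.07, 0.36 and 0.04 log2) and Cacng2 (by 0.52, 0.01, 0.21 and 0.18 log2). Among all tested probes 4.98% were higher and 9.47% lower in 4 of 4 pairs. The smallest unadjusted p in the list belonged to the gamma subunits Cacng6, at -0.45, and Cacng2, at -0.23 (adjusted p = 0.9999 by limma for both). Of the 18 tested subunits, 13 passed for differences among replicate numbers, beside 66.6% of all probes.

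**Figure D4:**
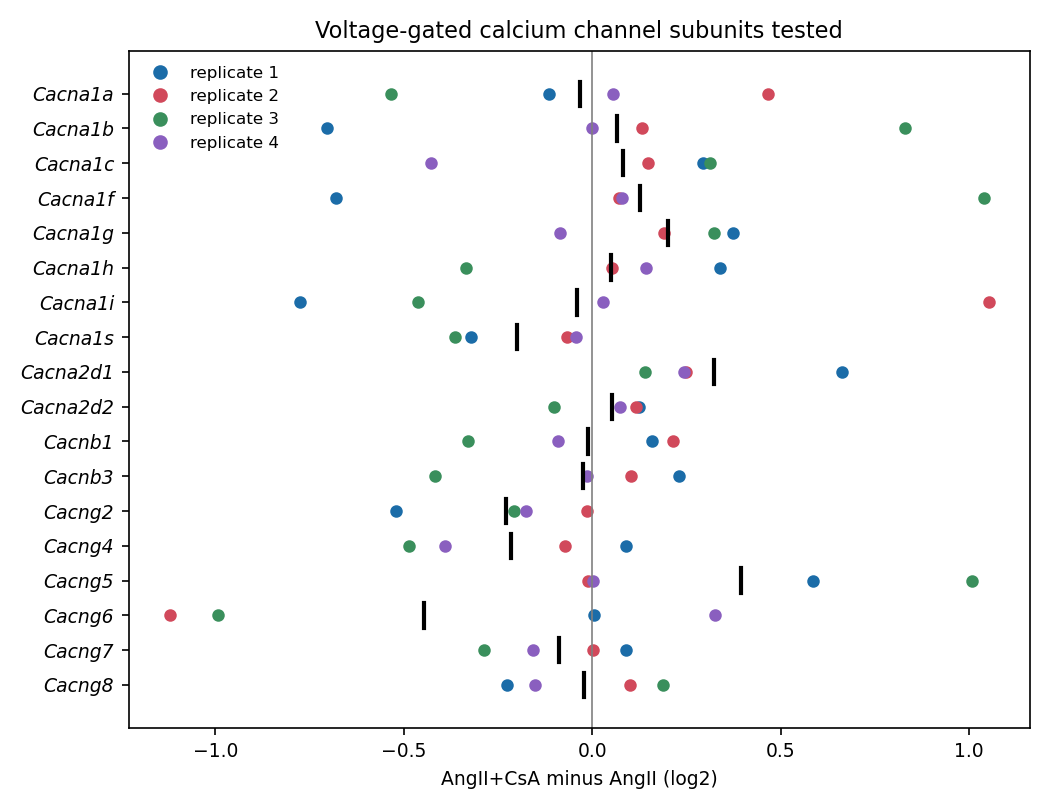
Difference of AngII+CsA minus AngII (log2) within each replicate number for the 18 voltage-gated calcium channel subunit genes tested, with black bars at the mean. The means lie between -0.45 and 0.40, the 4 points of Cacna2d1 are all above 0, and those of Cacna1s and Cacng2 are all below 0.

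Proteins that bind or act with RGK GTPases were likewise uncalled. Of 22 genes, all on the array, 20 were tested. Of these, 0 passed in either fit, beside 0 (groups alone) and 2 (block) of all 19529 probes. The 20 had 11 negative and 9 positive differences and a median of -0.05. Among the calmodulin genes, Calm2 and Calm3 differed by -0.15 and -0.10, and Ywhaz, one of the 14-3-3 proteins, by -0.06. The cytoskeletal kinases Rock1 and Rock2 differed by 0.38 and 0.42. Rock2 was higher in 4 of 4 pairs, mostly in replicate 1 at 1.21. Ywhab, Ezr and Camk2g were also higher in every pair. That made 4 of the 20 tested higher and 0 lower in every pair, beside 4.98% and 9.47% of all tested probes. None of the 4 means passed (adjusted p = 0.929 for Ywhab and 0.926 for the others by limma with the block). Gmip, a GTPase-activating protein that binds Gem, differed by 0.04, and ezrin (Ezr), a linker of membrane and actin that binds Gem, by 0.23. Kif9, a kinesin that binds Gem, was above background on 1 of 4 AngII+CsA arrays and 0 of 4 AngII arrays. The smallest unadjusted p-values were those of the calmodulin-dependent kinases Camk2g, at 0.35, and Camk2a, at -0.52 (adjusted p = 0.9999 by limma for both).

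Other small GTPases of the Ras branch gave a comparison by kinship. Of 31 genes, 29 had a probe and 24 were tested. Of these, 0 passed in either fit, beside 0 (groups alone) and 2 (block) of all 19529 probes. The 24 had 16 negative and 8 positive differences and a median of -0.04. The lowest was Rasl11b, with 4.91 ± 0.28 in AngII+CsA and 5.47 ± 0.34 in AngII (SD, n = 4 each). It was lower in 4 of 4 pairs, by 0.61, 0.69, 0.46 and 0.50 log2, and did not pass (limma adjusted p = 0.9999 without the block and 0.926 with it). Rap2b differed by -0.29 (adjusted p = 0.9999 by limma). Of the 24 tested, 1 was lower (Rasl11b) and 1 higher (Rap2a) in 4 of 4 pairs, beside 9.47% lower and 4.98% higher among all tested probes.

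The genes most like each member were taken as those with the highest Pearson correlation over the 8 arrays, among 13331 probes with a current symbol and a signal above background on all arrays. The 8 arrays share slides in pairs, so these values describe the arrays only. For Rrad they included the AP-1 subunit Junb at 0.98, Ubap2l at 0.97, Gca at 0.97 and Neurl1a at 0.97. For Rem2 they were the metallothionein Mt1 at 0.99, Olfr847 at 0.99, Ugt3a2 at 0.99, Csmd3 at 0.98 and the urotensin receptor Uts2r at 0.98. For Rem1 they were Arhgap44 at 0.98, Bcl9 at 0.98, Radil at 0.97, the kinase Plk3 at 0.97 and the heat shock protein Dnajb5 at 0.97. For Gem they were Chd5 at 0.96, complement component Hc at 0.96, Prh1 at 0.94, Ubn1 at 0.92 and Col25a1 at 0.92. The Gem values ranked here include its cyclosporin difference, so genes lower with cyclosporin are favoured by the ranking itself. Gem was also well above background on only 4 of the 8 arrays.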

How the data were processed

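Total RNA of 8 cultures was amplified into Cy3-labelled RNA, per the labels' protocols. Per the file headers, the arrays were of Agilent design 014868, and Feature Extraction 9.5.3.1 read them (protocol GE1-v5_95_Feb07). The authors deposited intensity values per spot on a linear scale: the processed signal, background-subtracted by that software, and the mean and local background signals. They also deposited a table of log2 values, whose sorted values match between arrays as quantile normalization leaves them, with scale unstated. It served as an alternative.

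Levels were log2 processed signal minus each array's 75th percentile, without control and outlier spots, with spots of a probe averaged. No spot was saturated. Probes above background on at least 4 of 8 arrays (19529 of 41174) went into limma 3.58.1 (R 4.3.3, two-sided tests) with Benjamini-Hochberg adjustment at 0.05. The fits were tested on a few draws of simulated data, where the blocked fit made more false calls than that level allows. So few draws do not fix its rate of false calls. Genes in the lists were named through RefSeq accessions of GRCm38.p6 (22944 probes), a current symbol (6664) or the file's name (11566), and were represented by their brightest probe. The number of arrays limits the precision.

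The numbering pairs the arrays: deviations correlated at 0.70 to 0.86 within a number. The fit on the groups alone is the main one, and the fit with the number as a block is given beside it.

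Named were all RGK probes, Rcan1, 18 genes of the calcium channel and partner lists whatever they showed, the 2 smallest p-values per list, and the 5 most correlated genes per member, some of which are not reported here. The members and lists were chosen with earlier results of these data known, and no list is independent support. Serpinb1c, Cacna1s, Ywhab, Rap2a and the cell markers named with their values lie outside this rule. Alternatives covered background correction, scaling, outliers, the filter, the authors' table, the block and leaving out arrays.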

Additional observations from a re-analysis of the deposited data

Results flagged for a closer look

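Within groups of 4, 1 array lay far from the other 3 in 3 of 58 groups examined among the named genes, and chance gives about 1 in 20 such groups. For Rrad, AngII+CsA replicate 1 was at 0.00, while the other AngII+CsA arrays were at 1.21 to 1.45. For Cacna1h, AngII replicate 1 was at -2.98, while the other AngII arrays were at -1.83 to -1.76. For Rock1, AngII+CsA replicate 1 was at 1.73, while the other AngII+CsA arrays were at 0.76 to 0.87. All 3 belong to replicate 1.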

How the results depend on the processing

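Of 232 values recomputed under other settings, 208 kept their direction and side of the threshold or moved by less than the spread between pairs. Some of the 208 could not change. These were the list calls in settings where no probe at all was called, and the list medians with the replicate block. Of the 24 that changed, 16 were lost calls among the 44 recomputed differences between replicate numbers of Gem, Rem2 and Rrad. The count of 0 probes called for cyclosporin on the groups alone became 2 with the replicate block and 8 with the replicate number as a random block, and was 0 without any single array and, with the block, without any 1 number. Probes differing among replicate numbers numbered 12983, 21902 with no filter on dim probes (more probes tested), and 7141 to 14558 without single arrays, the lowest counts being 7534 without AngII+CsA replicate 4, 7141 without AngII replicate 4 and 7905 without AngII replicate 2. The Gem difference moved to -0.29 with normexp background correction and lay between -1.21 and -0.69 without single arrays or replicate 1. That of Rrad lay between -0.11 and 0.50, and that of Rem2 between -0.30 and 0.09. The medians of the channel, partner and Ras lists lay between -0.15 and 0.10, and 0 members passed in any setting run. The replicate block changed no RGK list call. Leaving out both replicate 1 arrays and raising dim values to the floor were chosen after seeing the data. Slide and replicate number coincide, so no separate slide block was run. Signals near background limit Gem and Rem1.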
